A study of Homo sapiens with 5 samples.

Results

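The genes described here are 10 heat shock and chaperone genes, HSPA5, HSPA8, HSPA1A, HSPA1B, DNAJB1, HSPH1, HSP90AA1, HSPB1, HSPD1 and HSF1, out of 20163 protein-coding genes of the annotation. They were chosen by name, and every ATF3 or p53 peak was taken that lay between 20 kb upstream of the transcription start site (TSS) and the end of the gene on hg19. ATF3 and p53 binding had been mapped by ChIP-seq in HCT116, a human colon cancer cell line, with 5 libraries in all. ATF3-Ctrl came from ATF3-WT cells in DMSO, the solvent of the drug, and ATF3-CPT from ATF3-WT cells in 1.5 µM camptothecin (CPT), a topoisomerase I poison that damages DNA. ATF3-KO came from ATF3-knockout cells in DMSO and was precipitated with the same ATF3 antibody. The p53-CPT library came from p53-WT cells in 1.5 µM camptothecin and the p53-KO library from p53-knockout cells in DMSO, both with a p53 antibody, so that this pair differed in genotype and in treatment. All treatments lasted 4 h, and all cells were crosslinked with 1 mM DSG for 45 min and 1% formaldehyde for 10 min. The ATF3-knockout line carries a small deletion made by gene targeting with a recombinant adeno-associated virus, and each genotype was represented by a single cell line.

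Chaperones hold unfolded proteins and help them fold. HSP70 proteins bind and release short hydrophobic stretches with the help of J-domain partners and nucleotide exchange factors, HSP90 matures signalling proteins, small heat shock proteins hold aggregating clients, and HSP60 is a folding chamber of mitochondria. Most of their genes are induced by heat through HSF1, which binds arrays of GAA and TTC units called heat shock elements, while the endoplasmic reticulum chaperone HSPA5 is induced by misfolded secretory proteins through the ER stress element. ATF3 is a basic leucine zipper factor induced by many stresses, and it binds the ATF/CRE core TGACGTCA and the AP-1 core, TGACTCA or TGAGTCA.

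ATF3 peaks lay at 8 of the 10 genes after camptothecin and at 7 of the 10 in DMSO, and their levels spanned a wide range. The strongest sites were not in the proximal promoters but 2134 bp upstream of HSPA5, which encodes the ER chaperone BiP, and 2251 bp upstream of HSPB1, which encodes the small heat shock protein HSP27. The sites closest to TSSs, at HSPH1, HSP90AA1, HSPD1 and HSF1, were weaker in both libraries, and HSPA8 had weak peaks in ATF3-CPT alone. No peak of the ATF3-KO library and no p53 antibody peak lay in a promoter of the 10 genes. HSPA1A and HSPA1B, which encode the stress-inducible HSP70, had no peak in any list.

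Each condition had 1 library, so no comparison between conditions has a replicate check, and ratios and intervals describe counting error in these libraries only. The libraries held between 1984941 tags (p53-KO) and 15457013 tags (ATF3-CPT), and the 3 ATF3 libraries between 12820520 and 15457013. Between 0.56% (ATF3-KO) and 12.76% (ATF3-CPT) of the tags lay in peaks. The normalized tag count of a peak is its number of tags per 10000000 tags of the library, and 1 tag was worth 0.772 in ATF3-Ctrl, 0.647 in ATF3-CPT, 0.78 in ATF3-KO, 3.15 in p53-CPT and 5.04 in p53-KO. Peaks were listed by the findPeaks score, a tag number that the authors did not scale to the library and that can differ from the tags behind the normalized tag count. The lowest score listed was 9 in ATF3-Ctrl and ATF3-CPT, 11 in ATF3-KO, 7 in p53-CPT and 6 in p53-KO, so binding below these scores was not detectable.

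Promoters reached 2 kb to either side of the TSS. In ATF3-Ctrl, 5 of 10 genes had a promoter peak, against 36.9% of all protein-coding genes, and these were HSPH1, HSP90AA1, DNAJB1, HSPD1 and HSF1. In ATF3-CPT, 6 of 10 had one, against 51.7% of all genes, and the gene added was HSPA8. In ATF3-KO, 0 of 10 had a promoter peak against 7.34% of all genes. In p53-CPT and p53-KO the count was again 0 of 10, against 2.95% and 1.51% of all genes. Shares as low as these 3 correspond to under 1 gene in 10, and the ATF3-Ctrl and ATF3-CPT counts also lay near the share of all genes. Over the whole window, 7 genes had an ATF3-Ctrl peak against 64% of all genes, and 8 had an ATF3-CPT peak against 80.3%. When the promoter was widened to 5 kb, the sites of HSPA5 and HSPB1 came in, and the counts were 7 in ATF3-Ctrl and 8 in ATF3-CPT. The share of all genes was not computed at 5 kb, and the shares above for 2 kb do not apply to these counts.

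**Figure D1:**
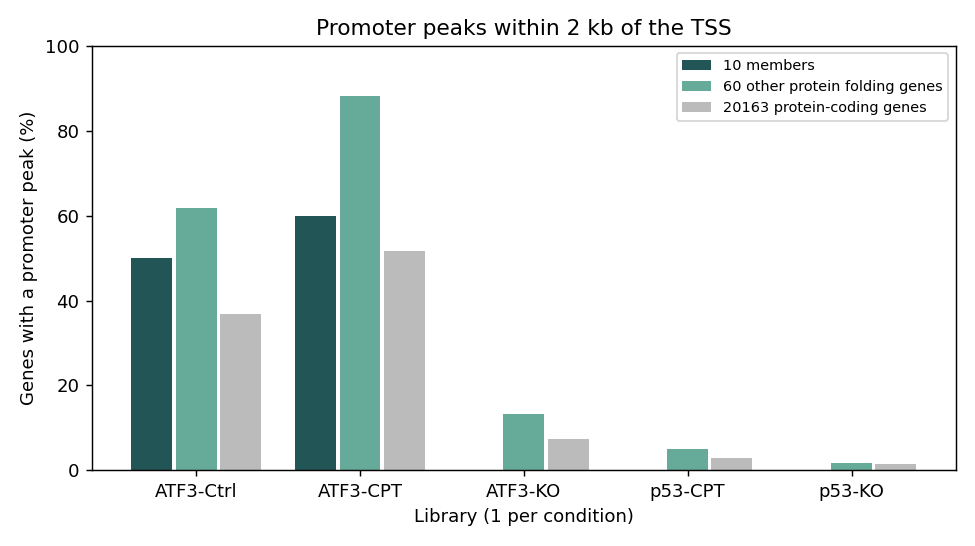
Percentage of genes with a peak centre within 2 kb of the TSS (y axis) in each of the 5 libraries (x axis), for the 10 genes described here, 60 other genes of protein folding and all 20163 protein-coding genes. The 10 genes stood at 5 and 6 of 10 in the ATF3 libraries of wild-type cells and at 0 in the other 3 libraries.

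The windows of the 10 genes held 14 ATF3-Ctrl peaks, 6 of them in promoters, and 24 ATF3-CPT peaks, 12 of them in promoters. The ATF3-Ctrl peaks had normalized tag counts from 7.0 to 238.7 with a median of 12.4, and the ATF3-CPT peaks from 5.8 to 256.8 with a median of 11.95. An overlap of at least 1 bp with the ATF3-CPT list was found for 12 of the 14, against 79.9% of all ATF3-Ctrl peaks. In the other direction, 12 of the 24 ATF3-CPT peaks met a peak of ATF3-Ctrl, against 38.3% of their list. None of the 14 overlapped an ATF3-KO peak, against 5.23% of all ATF3-Ctrl peaks. The lowest score listed in ATF3-KO was 11, and 3 of the 14 had a score under it, so that a site of such a score would not have been listed there.

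**Figure D2:**
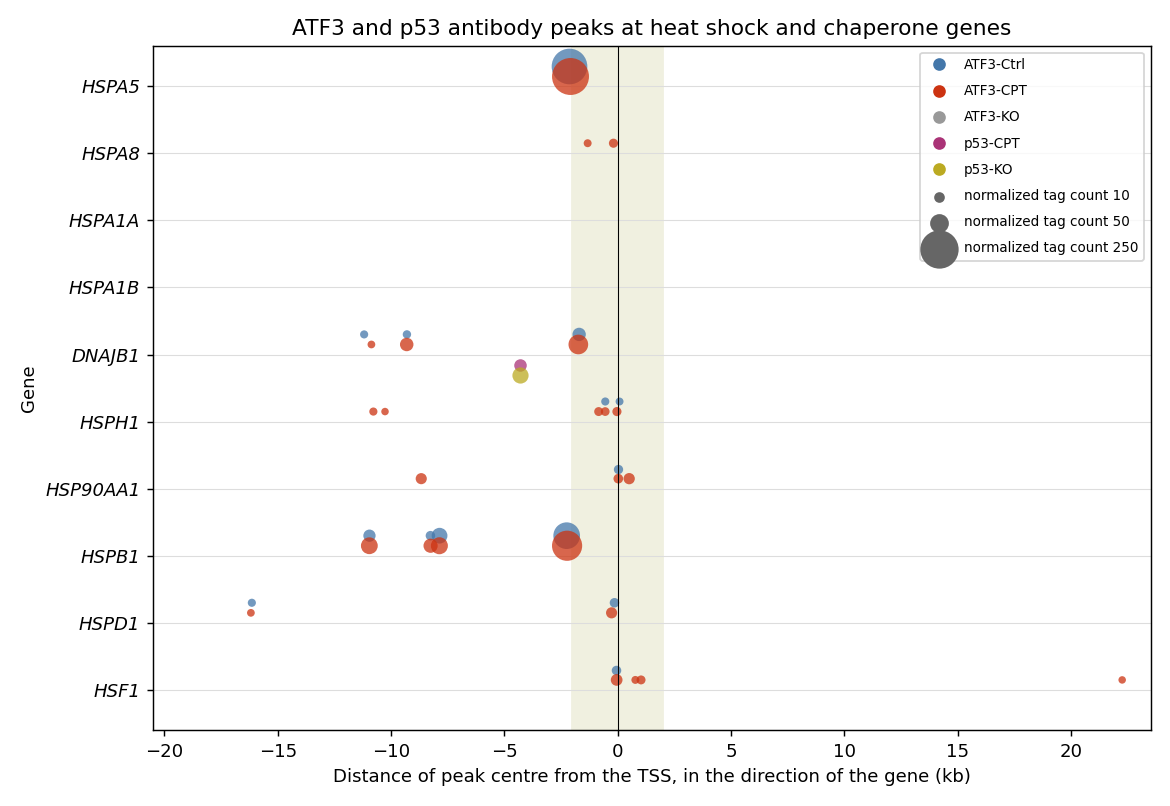
Position of every peak at the 10 genes, as distance of its centre from the TSS in kb (x axis, negative upstream) by gene (y axis), coloured by library and with area growing with the normalized tag count. The shaded band marks the promoter of 2 kb on either side, no ATF3-KO peak is present, and the largest circles lie just upstream of the band at HSPA5 and HSPB1.

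The sequences of the sites outside exons that hold an AP-1 or ATF/CRE core are shown to let the binding be read beside its DNA, from GRCh37, the build equal to hg19, on the strand of the gene. Capitals mark AP-1 cores and ATF/CRE cores, and in the HSPA5 site also TGATGCAA, the core at which C/EBP and ATF proteins bind as a pair. That last core was searched after the HSPA5 sequence had been read. All windows are whole deposited peaks, and a further DNAJB1 site with an AP-1 core, 9298 bp upstream, is not shown because it lies in an exon.
HSPA5 2134 bp upstream, ATF3-Ctrl, chr9:128005693-128005819, minus strand: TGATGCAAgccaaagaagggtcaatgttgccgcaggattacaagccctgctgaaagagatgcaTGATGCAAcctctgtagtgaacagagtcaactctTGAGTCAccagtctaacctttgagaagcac
HSPB1 2251 bp upstream, ATF3-Ctrl, chr7:75929676-75929802, plus strand: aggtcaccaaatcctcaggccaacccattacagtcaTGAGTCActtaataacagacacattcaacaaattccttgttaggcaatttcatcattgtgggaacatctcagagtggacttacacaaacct
HSPB1 8261 bp upstream, ATF3-Ctrl, chr7:75923666-75923792, plus strand: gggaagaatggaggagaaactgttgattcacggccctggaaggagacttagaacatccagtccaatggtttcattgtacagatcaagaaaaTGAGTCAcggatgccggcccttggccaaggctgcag
HSPB1 10950 bp upstream, ATF3-Ctrl, chr7:75920977-75921103, plus strand: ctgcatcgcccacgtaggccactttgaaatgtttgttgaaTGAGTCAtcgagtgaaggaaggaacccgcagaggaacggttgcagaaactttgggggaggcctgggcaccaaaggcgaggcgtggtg
DNAJB1 1702 bp upstream, ATF3-Ctrl, chr19:14630848-14630974, minus strand: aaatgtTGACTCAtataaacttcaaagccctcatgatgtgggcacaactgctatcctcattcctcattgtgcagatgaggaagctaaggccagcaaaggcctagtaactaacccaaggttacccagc
HSP90AA1 8666 bp upstream, ATF3-CPT, chr14:102561985-102562109, minus strand: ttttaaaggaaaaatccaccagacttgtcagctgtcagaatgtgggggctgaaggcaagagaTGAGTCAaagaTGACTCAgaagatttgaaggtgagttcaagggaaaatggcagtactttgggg
HSPH1 840 bp upstream, ATF3-CPT, chr13:31736819-31736943, minus strand: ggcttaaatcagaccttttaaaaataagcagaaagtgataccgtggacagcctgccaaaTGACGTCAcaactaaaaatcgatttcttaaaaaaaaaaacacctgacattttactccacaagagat

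The AP-1 core, searched as TGACTCA or TGAGTCA (each the reverse complement of the other), was in 5 of the 8 ATF3-Ctrl peaks outside promoters and in 1 of the 6 in promoters. In ATF3-CPT it was in 6 of the 12 peaks outside promoters and in 1 of the 12 in promoters. Of all peaks, 31.0% in ATF3-Ctrl and 40.6% in ATF3-CPT held it, and of all promoters, read from 250 bases before to 50 after the TSS, 3.57%. The ATF/CRE core was found in 1 peak only, the ATF3-CPT peak of HSPH1 shown above, against 1.41% of all ATF3-CPT peaks and 1.93% of all ATF3-Ctrl peaks. Its arm TGACG, searched on both strands and contained in the full core, was in 3 of 6 promoter peaks in ATF3-Ctrl and 6 of 12 in ATF3-CPT, against 16.9% and 13.2% of all peaks and 29.1% of all promoters. For this arm and the AP-1 core, no share was computed over promoter peaks alone, and the promoter span read is longer than a peak window. Every ATF3-CPT promoter peak of HSF1 was among the matches to TGACG. TGATGCAA was present in the HSPA5 site alone among the 14 ATF3-Ctrl peaks, against 13.3% of all ATF3-Ctrl peaks, 3.51% of all ATF3-CPT peaks and 0.65% of promoters.

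HSPA5 encodes BiP, the HSP70 of the endoplasmic reticulum, which pulls proteins into that compartment and holds the stress sensors of its membrane. Its site 2134 bp upstream had a normalized tag count of 238.7 in ATF3-Ctrl (95% Poisson interval 213 to 267) and 256.8 in ATF3-CPT (232 to 283). It was the highest value of the 10 genes in both libraries, and by score it was number 41 of 33681 peaks in ATF3-Ctrl and number 35 of 70231 in ATF3-CPT. The ATF3-CPT to ATF3-Ctrl ratio was 1.08 (95% interval 0.925 to 1.25), an interval that included 1, and 77.2% of all shared sites had a higher ratio. The peak lies in an intron of HSPA5-DT, a long noncoding RNA gene transcribed divergently from HSPA5, and no other TSS of a protein-coding gene was closer. The peak window held 2 copies of TGATGCAA, 4 bp and 59 bp from the window centre, and a TGAGTCA 37 bp from it. The ER stress element, searched as CCAAT and CCACG 9 bases apart on both strands, was present in the HSPA5 promoter, as in 0.104% of all promoters, and in no ATF3 peak of the 10 genes. ATF3 had no peak within 2 kb of this TSS in either library.

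HSPB1 encodes HSP27, a small heat shock protein that forms large oligomers and protects actin filaments. It had 4 sites between 2251 bp and 10950 bp upstream, all outside annotated genes, and each was present in both wild-type lists. The nearest site had 131.3 in ATF3-Ctrl (112 to 153) and 169.5 in ATF3-CPT (150 to 191), ranking 114 of 33681 and 61 of 70231 by score. Its ratio was 1.29 (1.06 to 1.58), above 1 by counting error but short of the 1.5-fold used here to call a change. The site 7858 bp upstream had 42.5 and 50.5, a ratio of 1.19 (0.831 to 1.71). The site 8261 bp upstream had 12.4 and 33.6, a ratio of 2.72 (1.53 to 5.11), and the site 10950 bp upstream 23.9 and 49.2, a ratio of 2.05 (1.34 to 3.23). The 2 weaker sites were thus past 1.5-fold and the 2 stronger ones not. Of the 4, all but the site 7858 bp upstream held a TGAGTCA, 20 bp to 31 bp from the window centre, and that site held TGACG instead.

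DNAJB1 encodes HSP40, the J-domain partner that delivers clients to HSP70. Its promoter site 1702 bp upstream, in an intron shared by the longer DNAJB1 transcripts and TECR, had 29.3 in ATF3-Ctrl (20.8 to 40.3) and 69.2 in ATF3-CPT (56.7 to 83.7). The intervals did not overlap, and the ratio was 2.36 (1.62 to 3.51), the highest of the shared promoter sites of the 10 genes. A weaker site 9298 bp upstream, nearer to the TSS of TECR, had 8.5 and 29.8, a ratio of 3.5 (1.79 to 7.5). Both held an AP-1 core. At the TECR start itself, ATF3-Ctrl had a peak of 7.7 and ATF3-CPT a separate one of 6.5 whose centre was 321 bp away, so that these did not count as shared.

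DNAJB1 was also the only gene of the 10 with a p53 antibody peak, 4302 bp upstream. It had a normalized tag count of 25.2 (10.9 to 49.7) from 8 tags in p53-CPT and of 45.3 (20.7 to 86.1) from 9 tags in p53-KO, so it was present in cells without p53. Of all p53-CPT peaks, 60.9% overlapped a p53-KO peak. Its score of 7 was the lowest that entered the p53-CPT list. The best match to the p53 motif in the window had 5 mismatches, while 20.3% of p53-CPT peaks and 4.69% of p53-KO peaks had a match with at most 3. No ATF3 peak overlapped it.

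HSP90AA1 encodes the inducible cytosolic HSP90. A peak at its TSS had 11.6 in ATF3-Ctrl (6.48 to 19.1) and 12.9 in ATF3-CPT (7.9 to 20), a ratio of 1.12 (0.544 to 2.34). ATF3-CPT had further peaks, absent from the ATF3-Ctrl list, 506 bp downstream with 19.4 (13.1 to 27.7) and 8666 bp upstream with 18.8 (12.6 to 26.9). The upstream peak lies in an intron of the longer HSP90AA1 transcripts and held the TGAGTCA and TGACTCA cores shown above, 3 bp and 14 bp from its centre. The ATF3-CPT peak 506 bp downstream held none of the searched cores.

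At HSPD1, HSPA8 and HSPH1, ATF3-CPT promoter peaks covered a heat shock element. HSPD1 encodes the mitochondrial chaperonin HSP60, HSPA8 the constitutive cytosolic HSC70, and HSPH1 the HSP110 that acts as a nucleotide exchange factor for HSP70. The 30 bases around the elements are shown on the strand of the gene, from GRCh37, with capitals on the overlapping units GAANNTTC and TTCNNGAA.
HSPD1, chr2:198364786-198364815, minus strand: ggcattTTCTGGAAAGTTCTGGAAccgagc
HSPA8, chr11:122933054-122933083, minus strand: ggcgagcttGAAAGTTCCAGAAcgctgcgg
HSPH1, chr13:31736080-31736109, minus strand: tgccgcagaTTCTGGAAAGTTCtgatcagt

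GAANNTTC, searched with N as any base and equal to its own reverse complement, was in 4 of the 12 ATF3-CPT promoter peaks of the 10 genes, against 2.39% of all ATF3-CPT peaks. TTCNNGAA was in 3 of the 12, against 2.97% of all ATF3-CPT peaks. Both shares cover peaks in and outside promoters, and none was computed for promoter peaks alone. In the 6 ATF3-Ctrl promoter peaks neither unit was present in the deposited windows, and each was present in 2 when 200 bp around the peak centre were read. Heat shock elements are a known feature of these promoters, whether or not ATF3 is bound. GAANNTTC was in the promoter, from 250 bases before to 50 after the TSS, of each of HSPA8, HSPH1, HSP90AA1, DNAJB1, HSPD1, HSPA1A, HSPA1B and HSPB1, as in 5.52% of all promoters, and the HSPA5 promoter held neither unit. The HSF1 promoter was not read over this span, but the HSF1 peaks are in the peak counts above. Among them, the ATF3-CPT peak 778 bp downstream of the HSF1 TSS held GAANNTTC. No deposited ATF3 window covered the units in the promoters of HSP90AA1, DNAJB1, HSPB1, HSPA1A and HSPA1B.

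HSPA8 had no ATF3-Ctrl peak in its window and 2 ATF3-CPT peaks, 188 bp upstream with 11 (6.41 to 17.6) and 1326 bp upstream with 7.1 (3.55 to 12.7). The score of the nearer peak was 17, beside a median of 16 over the ATF3-CPT list, and that of the farther peak was 11, close to the lowest score of 9. A level in ATF3-Ctrl cannot be given for either. At HSPH1 the site nearest the TSS had 7.0 in ATF3-Ctrl (3.18 to 13.2) and 11 in ATF3-CPT (6.41 to 17.6), a ratio of 1.58 (0.667 to 4.03). These 2 windows overlapped by 10 bp, with centres 116 bp apart, and only the ATF3-CPT window covered the heat shock element. A second HSPH1 site, 549 bp upstream, had 7.7 and 9.7, a ratio of 1.26 (0.528 to 3.13), and the ATF3-CPT peak 840 bp upstream with TGACGTCA at its centre had 10.4 (5.92 to 16.8). The ATF3-CPT list also had peaks of 5.8 and 7.8 at 10264 bp and 10778 bp upstream of HSPH1.

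HSPD1 and HSPE1, the gene of its cochaperonin HSP10, are transcribed in opposite directions from a common promoter. ATF3-Ctrl had a peak of 12.4 (7.06 to 20.1) 143 bp upstream of HSPD1 and ATF3-CPT a peak of 18.8 (12.6 to 26.9) 270 bp upstream, which is 269 bp upstream of HSPE1. Their centres were 127 bp apart and their windows missed each other by 1 bp, so they did not count as shared by overlap. Paired by centres within 200 bp, the ratio was 1.52 (0.798 to 2.99). A weak site 16138 bp upstream of HSPD1 belonged by distance to MOB4 and was the only shared site with a lower value after camptothecin, 7.7 and 6.5, a ratio of 0.838 (0.313 to 2.24). By score per tag of the library that ratio was 1.02.

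HSF1 encodes the heat shock factor that induces most of the genes above, and it starts beside BOP1, a ribosome biogenesis gene transcribed the opposite way. Its promoter site, 55 bp upstream on chromosome 8, had 12.4 in ATF3-Ctrl (7.06 to 20.1) and 21.3 in ATF3-CPT (14.7 to 30), a ratio of 1.73 (0.924 to 3.36). The ratio was past 1.5-fold, but the intervals overlapped and that of the ratio included 1. ATF3-CPT had 3 further peaks, 778 bp, 1029 bp and 22251 bp downstream of the TSS, with 7.1, 10.4 and 5.8.

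Over the 12 shared sites, 6 were higher past 1.5-fold after camptothecin, against 60.8% of all 26906 shared sites, and 0 were lower, against 6.08%. In promoters, 3 of 5 were higher, against 42.2% of 6311 shared promoter sites, and 0 were lower, against 5.31%. The median ratio was 1.44 over the 12 sites and 1.8 over all shared sites, and 1.58 over the 5 promoter sites and 1.34 over all shared promoter sites. The interval of the ratio lay above 1 at 5 of the 12 sites, of HSPB1 (3 sites) and DNAJB1 (2 sites). At the other 7 it included 1, and the share of all shared sites with an interval above 1 was not computed. Both medians lay inside the quartiles of their background, 1.13 to 2.64 for all shared sites and 0.977 to 1.95 for shared promoter sites. Of the 12 ATF3-CPT peaks with no overlapping ATF3-Ctrl peak, 7 were in promoters, and the normalized tag counts of the 12 were between 5.8 and 19.4. The share in promoters among all such ATF3-CPT peaks was not computed. The HSPD1 promoter peak among the 7 missed an ATF3-Ctrl peak by 1 bp.

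**Figure D3:**
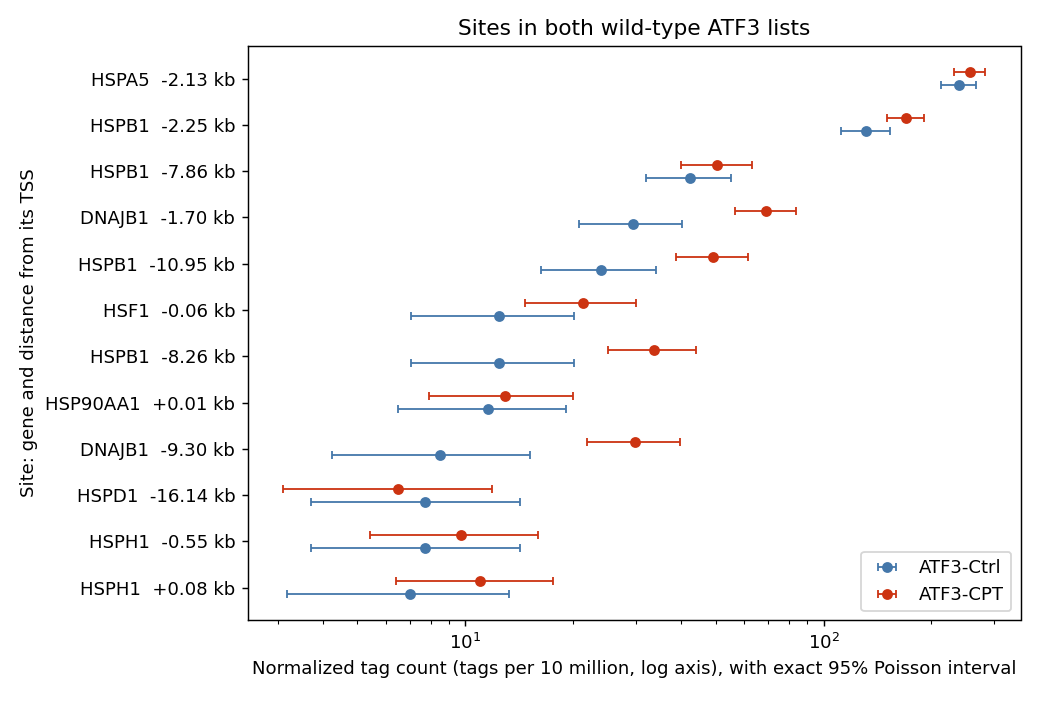
Normalized tag count (x axis, tags per 10000000, log axis) in ATF3-Ctrl and ATF3-CPT at the 12 shared sites (y axis, gene and distance from its TSS), 1 library each, with exact 95% Poisson intervals that cover counting error only. The intervals are apart at both DNAJB1 sites and at the HSPB1 sites 8261 bp and 10950 bp upstream.

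**Figure D4:**
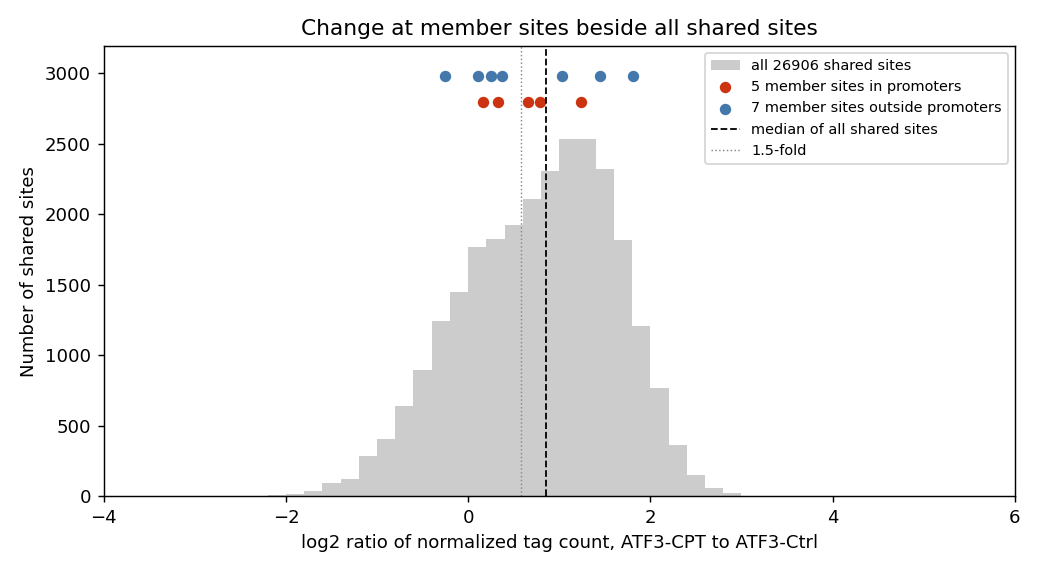
Number of shared sites (y axis) by log2 ratio of normalized tag count between ATF3-CPT and ATF3-Ctrl (x axis) for all 26906 shared sites, with the 12 sites of the 10 genes drawn as points above it, in and outside promoters. The dashed line is the median of all shared sites, a ratio of 1.8, the dotted line is 1.5-fold, and the points spread from 0.838 to 3.5 as ratios.

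HSPA1A and HSPA1B had no peak in any list, but they lie in a stretch of chromosome 6 where few peaks were called. Between 29 and 33 Mb, 1 of 156 genes (0.641%) had an ATF3-Ctrl promoter peak, against 37.2% of the genes elsewhere, and 10 of 156 (6.41%) had an ATF3-CPT promoter peak, against 52.0% elsewhere. The number of ATF3-Ctrl peaks per Mb was 1.25 there and 11 on the rest of the chromosome, and that of ATF3-CPT peaks 7.5 and 23.9. The lists placed 58 ATF3-Ctrl and 185 ATF3-CPT peaks on 7 alternative versions of this region, whose genes were not analysed here. In addition, 76.1% of the 36-base words of the HSPA1A gene occurred at HSPA1B, and 44.1% of those in its promoter. The part of these features in the absence of peaks was not tested. Without these genes, 5 of 8 had a promoter peak in ATF3-Ctrl and 6 of 8 in ATF3-CPT, against the 37.2% and 52.0% of genes elsewhere. Leaving out genes that lack a peak can only raise the share. The nearest ATF3-CPT peak was 38.2 kb upstream of HSPA1A, at VWA7, and the nearest ATF3-Ctrl peak 692 kb away.

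Among 60 other genes of protein folding, ATF3 promoter peaks were present at 37 (61.7%) in ATF3-Ctrl and at 53 (88.3%) in ATF3-CPT, against 36.9% and 51.7% of all protein-coding genes. All 37 were among the 53, and 16 had a peak in ATF3-CPT alone. The share of all protein-coding genes with a promoter peak in ATF3-CPT alone was not computed, so the 16 have no background beside them. The counts include 8 genes that also had an ATF3-KO promoter peak, named below, and no count without such peaks was made. The values given for these genes are the normalized tag counts of the highest promoter peak in ATF3-Ctrl and in ATF3-CPT, which need not be the same site, and the genes named have the highest ATF3-CPT values of their group. All 7 mitochondrial genes had a promoter peak in both libraries, with the highest ATF3-CPT values at HSPA9, the mitochondrial HSP70 (38.6 in ATF3-Ctrl, 50.5 in ATF3-CPT), the protease LONP1 (37.1 and 45.9) and the J-domain gene DNAJA3 (20.9 and 33). Of 13 genes of the endoplasmic reticulum, 9 had one in ATF3-Ctrl and 12 in ATF3-CPT. HERPUD1, a membrane protein of ER-associated degradation, had 302.8 and 249.7, above the HSPA5 site in ATF3-Ctrl, and was followed by DNAJB11 (58.7 and 67.3) and PDIA4 (8.5 and 14.9). The counts for the 8 subunits of the CCT chaperonin, which folds actin and tubulin, were 4 and 8, with the highest ATF3-CPT values at CCT4 (20.1 and 34.9), CCT5 (8.5 and 17.5) and CCT6A (8.5 and 15.5). The highest ATF3-Ctrl value of this group was at CCT7 (20.9 and 7.8).

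Of 7 J-domain genes, 4 had a promoter peak in ATF3-Ctrl and 7 in ATF3-CPT, with the highest ATF3-CPT values at DNAJB2 (32.4 and 60.8), DNAJC7 (17.0 and 20.1) and DNAJB4 (17.5 in ATF3-CPT alone). Of 11 HSP90 genes and cochaperones, 6 and 8 had one, with the highest ATF3-CPT values at ST13 (28.6 and 42.1), BAG3 (13.1 and 32.3) and CDC37 (16.2 and 30.4). Of 7 further HSP70 and HSP110 genes, 3 and 6 had one, and values stayed low, with 13.6 at HSPA13, 12.9 at HSPA14 and 9.7 at HSPA6 in ATF3-CPT. HSPA1L, which lies beside HSPA1A, was the gene of this group without a peak. Of 4 small heat shock genes, 2 had a promoter peak in each library, HSPB8 (10.0 and 55.6) and HSPB6 (8.5 and 7.1). The heat shock factor genes HSF2 and HSF4 and the regulator HSBP1 had 8.5, no peak and 7.7 in ATF3-Ctrl, and 9.7, 5.8 and 12.9 in ATF3-CPT.

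In ATF3-KO, 8 of the 60 genes (13.3%) had a promoter peak, against 7.34% of all genes, namely ST13, DNAJB9, DNAJC7, DNAJA3, LONP1, PDIA4, DNAJB11 and CCT4, with values from 9.4 at PDIA4 to 16.4 at CCT4. All 8 had ATF3-Ctrl values too, so the antibody gave tags at these promoters in cells without ATF3. The peak size was 198 bp in ATF3-KO and 126 bp in ATF3-Ctrl, so tags were counted over unlike widths. The values that follow were not corrected for this, and the highest promoter peaks of these libraries need not be the same site. Values in ATF3-KO and ATF3-Ctrl were 9.4 and 8.5 at PDIA4, 10.1 and 10.8 at DNAJB9, and 14.8 and 17.0 at DNAJC7. At CCT4 they were 16.4 and 20.1, and at DNAJA3 12.5 and 20.9. The DNAJA3 values came from separate sites, centred 73 bp upstream in ATF3-KO and 384 bp upstream in ATF3-Ctrl. ST13 had 10.1 and 28.6, LONP1 13.3 and 37.1, and DNAJB11 14.8 and 58.7. In p53-CPT, HSPA4L had a promoter peak of 78.9 and CDC37 one of 18.9, and neither gene had one in p53-KO. The lowest normalized tag count listed in p53-KO was 25.2, so a peak at the CDC37 level would not have been listed there. HSPA6 also had 18.9 in p53-CPT, the lowest normalized tag count of that list, from 6 tags. These 3 genes were 5.0% of the 60, against 2.95% of all genes. In p53-KO, HSPA6 had 65.5 and was the only one of the 60 with a promoter peak (1.67%), against 1.51% of all genes.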

How the data were processed

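ATF3 and p53 ChIP-seq of HCT116 cells was analysed from 5 deposited peak lists, 1 library per condition. The submitters' processing notes name BWA 0.6.1 and HOMER 4.1, and the authors called peaks on hg19 for each library without input. Per the file headers, a peak had to pass a 0.001 false discovery rate, exceed the surrounding 10 kb by a fold of 4 and reach a local p of 1e-04. For each peak the authors deposited a normalized tag count, a signal per 10000000 tags, and a score, a whole tag number for which the headers allow at most 1 tag per position and which can exceed the tags recovered here. The deposited local fold, its p-value, the focus ratio (a fraction) and the clonal fold were not used here.

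Tags were recovered from the normalized tag counts. TSSs were those of MANE Select transcripts in GENCODE release 44 on GRCh37, because gene records start up to 52.7 kb further upstream. Promoters were 2 kb on either side, peaks were placed by centre, and sites overlapping by 1 bp or more were shared with the highest-scoring partner. Ratios have exact 95% intervals, and a change was called past 1.5-fold. The members, gene lists and motifs were chosen with earlier results of these data known. Named were all members with their promoter peaks and leading or shared other peaks and, of the folding genes, the 3 with the highest ATF3-CPT value per group and those with an ATF3-KO or p53 promoter peak. A few weaker peaks and CCT7 were named outside this rule, after their values were seen. Of the gene list, 1 name had no entry and was left out. Promoter peaks, overlaps, ratio intervals and the ATF/CRE and AP-1 searches were tested on simulated or constructed data, and the other steps were not. The steps were run with Python 3.11.15, numpy 2.4.6, pandas 2.3.3 and scipy 1.17.1. Alternatives covered the promoter, TSS, score, overlap and scaling.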

Additional observations from a re-analysis of the deposited data

How the results depend on the processing

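No paired analysis was possible because each condition had 1 library, and for the same reason no library could be left out. Counts moved with the TSS used, with the reach of the promoter in the p53 libraries, with the start of the window and with the score. With the TSS of the gene record, 3 genes had an ATF3-Ctrl promoter peak instead of 5, and with a score of at least 20 only 1 did. The p53 antibody peak of DNAJB1 counted as a promoter peak with a promoter of 5 kb or with any protein-coding transcript start, giving 1 gene in p53-CPT and 1 in p53-KO. Peaks in the windows fell from 14 to 8 in ATF3-Ctrl and from 24 to 15 in ATF3-CPT when the windows began 5 kb upstream, and to 5 and 11 with a score of at least 20, which left 0 in p53-CPT and 0 in p53-KO. Windows from the gene record held 1 ATF3-KO peak, 3 p53-CPT peaks and 2 p53-KO peaks. Of the 60 other genes, a score of at least 20 left 14 in ATF3-Ctrl, 29 in ATF3-CPT, 0 in ATF3-KO, 1 in p53-CPT and 0 in p53-KO. The share of all protein-coding genes was not computed under these alternatives, so the counts here have no background beside them. With 200 bp around the centre, each heat shock unit was in 2 ATF3-Ctrl promoter peaks instead of 0. The median ratio at promoter sites was 1.42 to 1.71 under the alternatives and 1.58 as reported, and the number of sites past 1.5-fold was 6 or 7, the last counts by alternatives chosen after seeing the data. Of 109 alternative values, 87 stayed within 1.5 times the count or within the interval of the value, and none changed the direction of a called ratio. The 87 include counts of 0 that stayed 0 and ratios at single sites, some with wide intervals. Without the ratios at single sites, 63 of 85 alternative values stayed. The HSPA5 ratio, which was not called, was 0.97 by score per tag of the library. Per the file headers, the score counts at most 1 tag per position. In the smaller p53 libraries 1 tag is worth more, so weak peaks there are the least precise.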
